A study of Danio rerio with 2 samples.

Results

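Mitochondrial ribosomal protein genes encode the protein subunits of the ribosome inside mitochondria. They were taken as the rows whose gene name is mrps or mrpl followed by a number and, in some names, a letter. The rule found 65 of 33737 rows, 22 named for the small subunit (mrps) and 43 named for the large subunit (mrpl), each on 1 row. The rows come from RNA sequenced after immunoprecipitation of Flag-tagged Cpeb1b, a cytoplasmic polyadenylation element-binding protein that binds 3′ untranslated regions of mRNAs. Wild-type zebrafish embryos injected with Flag-cpeb1b mRNA were lysed whole at 16 h post-fertilization, and RNA held on anti-FLAG beads was sequenced in 2 biological replicates of this 1 group. The bait was supplied by the injected mRNA, all tissues of the embryo were mixed in the lysate, and no input or control precipitate was analysed here, so each value is a level in the precipitate and not an enrichment.

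Mitochondria keep a small genome of their own, and its messages, nearly all for the respiratory chain, are read by a dedicated ribosome. The rRNAs of this ribosome are made inside the organelle. Its proteins are encoded in the nucleus, translated in the cytosol and imported. The small subunit holds the mRNA and decodes it, and the large subunit joins the amino acids and releases the chain toward the inner membrane. Many subunits descend from those of the bacterial ribosome, and the others were added in the mitochondrial lineage. Inherited defects in several of these genes impair oxidative phosphorylation in humans.

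Levels are in RPKM, or reads of a gene divided by its length and by the size of its library, and were deposited by the authors as the mean of the replicates. No spread between replicates can therefore be given, and no difference below was tested. In bulk tissue, fewer cells of a type and less RNA per cell cannot be told apart. The steps between low values of the table correspond to RPKM denominators of 6576775 and 6551363 reads, if the deposited value is a plain mean of 2 libraries. On that reading, both libraries together had about 13.1 reads per kilobase at RPKM 1, a counting error of 27.6% for a gene model of 1 kb. The error falls to 14.8% at RPKM 3.5, 8.73% at RPKM 10 and 6.17% at RPKM 20. It covers counting only, and duplicate reads from amplification were not separable.

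Nearly all mitochondrial ribosomal protein transcripts were present at moderate levels. An RPKM of 1 or more, called detected here, was reached by 61 of 65 members, against 38.6% of all rows and 49.0% of all 19976 symbols. Among symbols that match a protein-coding RefSeq gene, as all 65 members do, the share was 53.7%. The member median was 3.52 RPKM, which is 3.69 times the 0.954 RPKM of all symbols and 2.99 times the 1.18 RPKM of the protein-coding ones. Over the 61 detected members the median was 3.996 RPKM, and over all detected symbols it was 3.22 RPKM.

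The members lay close together. The quartiles of all 65 members were 2.63 and 5.81 RPKM, a ratio of 2.21. The quartiles of all detected symbols, 1.78 and 6.94 RPKM, had a ratio of 3.90. Over all symbols, detected or not, they were 0.237 and 3.14 RPKM, a ratio of 13.3. A small ratio was not particular to the members. In the related lists below it ran from 1.76 (mitochondrial translation factors) to 4.56 (nuclear-encoded respiratory chain), with 2.77 for cytosolic ribosomal proteins. Levels from 2 to under 5 RPKM held 32 members, 12 of the small and 20 of the large subunit. A further 12 lay from 5 to under 10 RPKM and 7 from 1 to under 2 RPKM. The shares of all symbols in these bands, or within 25% of the member median, were not computed. RPKM 5 was reached by 22 members (33.8%), against 17.0% of all symbols, and RPKM 10 by 10 members (15.4%), against 8.34%. Within 25% of the member median stood 23 members, and neighbours in that order differ by less than the counting error of a 1 kb gene model. Together the members summed to 344 RPKM, or 0.0336% of the RPKM total of all rows. The highest single row held 342255 RPKM of that total, and all symbols together held 33.9% of it.

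The medians of the subunits lay 0.595 RPKM apart. The median was 4.03 RPKM over 22 small subunit genes and 3.44 RPKM over 43 large subunit genes, a ratio of 1.17. Detection was 21 of 22 in the small subunit (95.5%) and 40 of 43 in the large subunit (93.0%), against 49.0% of all symbols. The median of all detected symbols was exceeded by 13 small subunit genes (59.1%) and 23 large subunit genes (53.5%), against 24.5% of all symbols. RPKM 10 was reached by 2 of 22 small subunit genes (9.09%) and 8 of 43 large subunit genes (18.6%), against 8.34% of all symbols, so the small subunit share rests on 2 genes and is near that of all symbols. Among members at RPKM 5 or more, the median was 6.98 RPKM over 6 small subunit genes and 9.09 RPKM over 16 large subunit genes, a ratio of 0.768. That filter selects on the level itself, so this ratio compares only the upper ends of the subunits. The small subunit held 33.8% of the members and 30.6% of their summed RPKM.

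**Figure D1:**
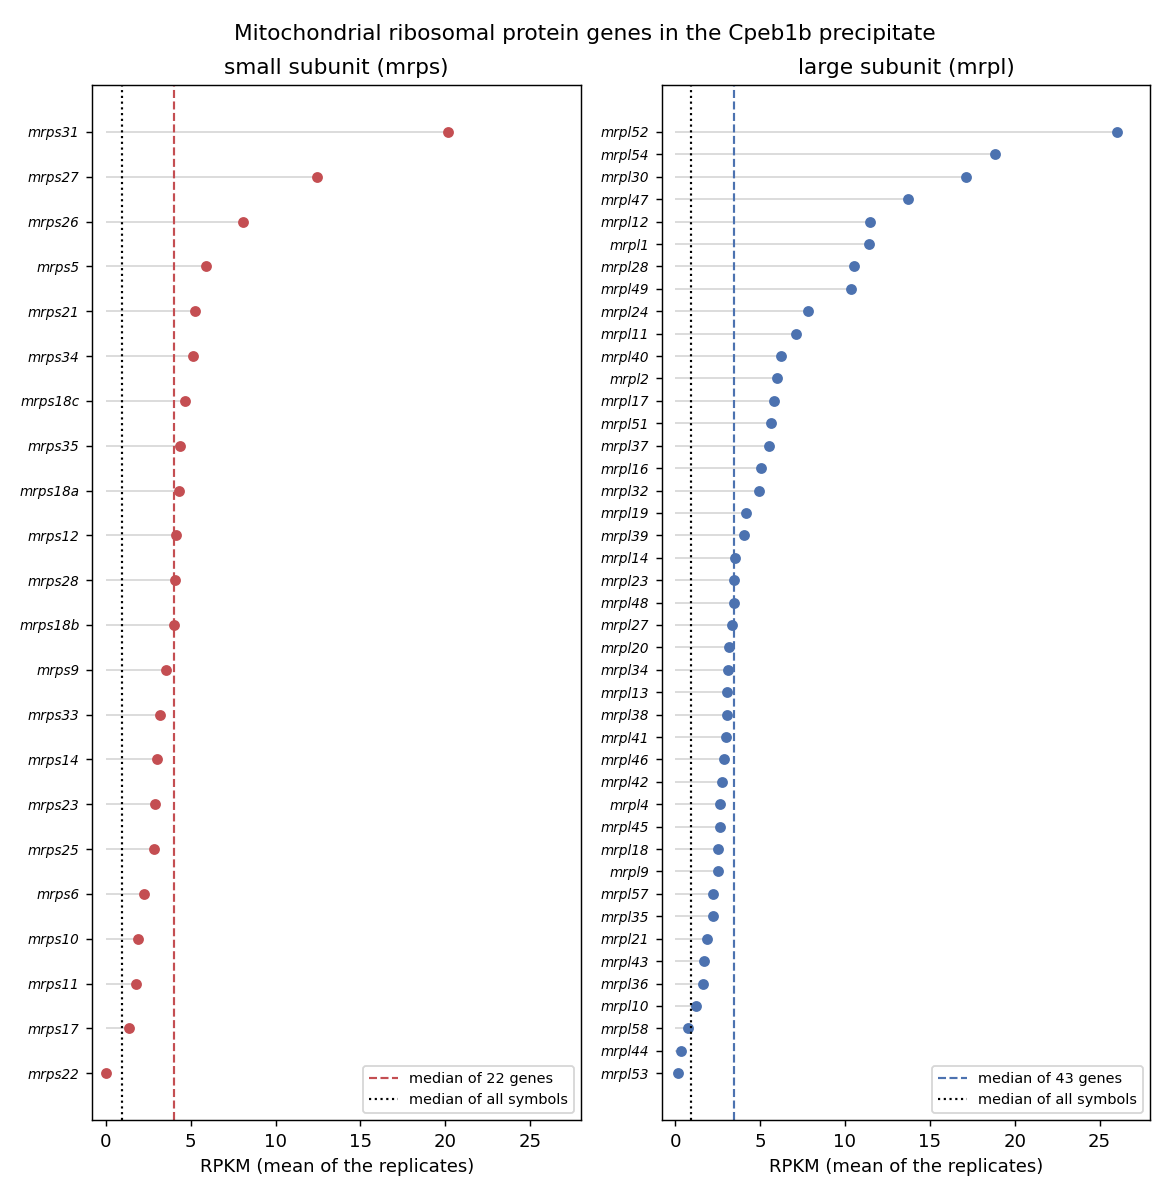
Each point is the deposited mean RPKM of 1 gene, with small subunit genes in the left panel and large subunit genes in the right. The dashed line is the panel's median (4.03 RPKM small, 3.44 RPKM large) and the dotted line is the median of all symbols (0.954 RPKM). From 2 to under 5 RPKM lie 12 genes of the left panel and 20 of the right, and mrpl52 (26.0 RPKM) and mrps31 (20.1 RPKM) are the highest.

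Among small subunit genes, mrps31 was highest at 20.1 RPKM, above 96.0% of all symbols and at rank 1165 of 33737 rows. It was followed by mrps27, whose product carries pentatricopeptide repeats typical of RNA-binding proteins of organelles, at 12.4 RPKM. Next came mrps26 at 8.06 RPKM. These 3 genes encode subunits with no bacterial counterpart. MRPS5, which lines the mRNA channel, had 5.90 RPKM, mrps21 had 5.23 RPKM and MRPS34, which in mammals is needed for small subunit stability, had 5.12 RPKM.

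At the lower end of the small subunit, MRPS22 was listed at 0. Its product is a subunit without a bacterial counterpart, and mutations of its human orthologue cause a mitochondrial disease. Of all symbols 9.84% were listed at 0, and such a value does not show that the transcript was missing. MRPS17 had 1.39 RPKM, MRPS11 1.77 RPKM, MRPS10 1.90 RPKM, mrps6 2.27 RPKM and MRPS25 2.84 RPKM. Apart from MRPS25 these detected genes all encode proteins with bacterial counterparts.

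Among large subunit genes, mrpl52 was highest at 26.0 RPKM, above 97.0% of all symbols and at rank 903. In the RefSeq gene order of assembly GRCz12tu its neighbour is ajuba, which was listed at 8181 RPKM. The part of reads from that neighbour in the mrpl52 value was not tested. The next were mrpl54 at 18.9 RPKM and mrpl30 at 17.1 RPKM. For mrpl54 the RefSeq neighbour fam32a had 59.1 RPKM, and for mrpl30 the neighbours txndc9 and zgc:162944 had 4.16 and 2.68 RPKM. The part of their reads in these values was not tested either. MRPL47, the counterpart of a bacterial protein at the exit of the nascent chain, had 13.7 RPKM. MRPL12, a protein of the flexible stalk that recruits translation factors, had 11.5 RPKM, and MRPL1, of the opposite stalk, had 11.4 RPKM. The 4 highest members of both subunits, mrpl52, mrps31, mrpl54 and mrpl30, held 23.9% of the members' summed RPKM.

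At the lower end of the large subunit, mrpl53 had 0.192 RPKM, MRPL44 0.318 RPKM and mrpl58 0.727 RPKM, all under the detection level. MRPL44 carries a ribonuclease III-like fold, and mrpl58, which RefSeq also names ict1, is a peptidyl-tRNA hydrolase that became part of the ribosome. The mrpl53 value equals, within 0.002 nt of a whole length, 1 read in the library with the smaller step on a gene model of 395 nt. With 2 reads on 790 nt or 3 reads on 1185 nt the value is the same, so the number of reads is not fixed by it. Fits of up to 3 reads were tried for the 3 members above 0 and under RPKM 1, and MRPL44 and mrpl58 gave none. MRPL10 had 1.23 RPKM, mrpl36 1.64 RPKM and MRPL43 1.73 RPKM.

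The genes under RPKM 1 shared a property that the naming rule did not use. All 4 of them, MRPS22, mrpl53, MRPL44 and mrpl58, encode subunits without a counterpart in the bacterial ribosome. Of all 65 members 29 encode such subunits, and the difference, which rests on 4 genes, was not tested. Detection was 25 of 29 among mitochondria-specific subunits (86.2%) and 36 of 36 among bacterial-type ones. Over all symbols the detected share was 49.0%, and over protein-coding symbols 53.7%. The medians were 3.44 RPKM for the mitochondria-specific and 3.53 RPKM for the bacterial-type genes, a ratio of 0.973. The direction depended on the filter, since the ratio was 1.14 over members at RPKM 1 or more and 1.05 over those above 0. It also covers only genes of the naming rule. The 4 listed subunits of this ribosome with other names, from 3.39 to 16.0 RPKM, were not part of the split. All of the 4 lowest members were mitochondria-specific, as were 3 of the 4 highest. Further down, the upper end was more even. RPKM 10 was reached by 5 of 29 mitochondria-specific genes (17.2%) and 5 of 36 bacterial-type genes (13.9%), against 8.34% of all symbols.

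Within the subunits this ratio pointed in opposite directions, and that difference was not tested. MRPS18A and mrps18b, relatives of a bacterial protein that take other places, were counted as mitochondria-specific. In the small subunit the median was 4.33 RPKM over 11 mitochondria-specific genes and 3.52 RPKM over 11 bacterial-type genes, a ratio of 1.23. The 4.33 RPKM is the value of MRPS18A itself. The ratio with MRPS18A or mrps18b placed otherwise was not computed. In the large subunit it was 3.01 RPKM over 18 mitochondria-specific genes and 3.54 RPKM over 25 bacterial-type genes, a ratio of 0.849. No bacterial-type gene of the small subunit exceeded 5.90 RPKM. RPKM 10 was thus reached by 0 of 11 of them and by 5 of 25 in the large subunit, against 8.34% of all symbols. With 11 genes, a count of 0 cannot be told from the share of all symbols, and this contrast was not tested.

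**Figure D2:**
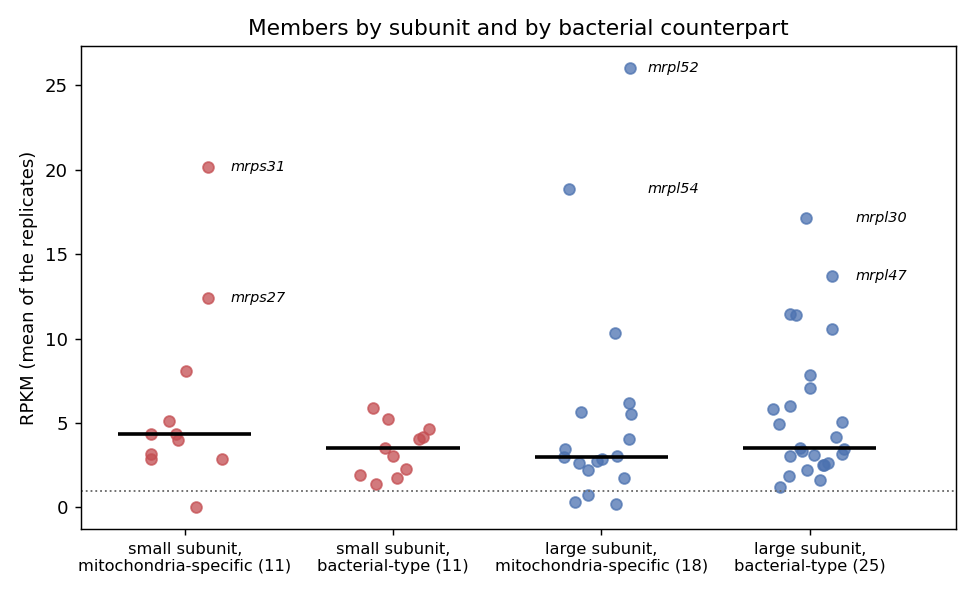
Each point is 1 gene at its deposited mean RPKM, split by subunit and by whether the protein was counted as having a counterpart in the bacterial ribosome. MRPS18A and mrps18b were counted as mitochondria-specific. Bars are medians (4.33, 3.52, 3.01 and 3.54 RPKM from left to right) and the dotted line is RPKM 1. The 4 points below that line are in the columns of mitochondria-specific genes.

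Among members assigned to a place in the ribosome, the genes of the stalks and of the polypeptide exit included the higher levels. The 4 highest members, mrpl52, mrps31, mrpl54 and mrpl30, had no place assigned. At the exit, where the nascent chain meets the inner membrane, the median of the 6 genes assigned was 5.39 RPKM. These 6 need not be all proteins of the exit. MRPL47 led with 13.7 RPKM, followed by MRPL24 at 7.84 RPKM, MRPL17 at 5.81 RPKM and MRPL32 at 4.96 RPKM, while MRPL23 had 3.47 RPKM. MRPL45, which anchors the mammalian ribosome to the membrane, had 2.63 RPKM. The genes assigned to the stalks were uneven, and they need not be all proteins of the stalks. No place was assigned to mrpl53 (0.192 RPKM) or mrpl54 (18.9 RPKM). MRPL12 had 11.5 RPKM and MRPL11, at the stalk base, had 7.10 RPKM, whereas MRPL10, which in the assembled stalk holds MRPL12, had 1.23 RPKM. MRPL12 was thus listed far above its direct partner. A 1 kb gene model would have counting errors of 8.14% for MRPL12 and 24.9% for MRPL10. The spread between replicates is not known, and the difference was not tested.

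The central protuberance contacts the transfer RNAs and the small subunit. Of 6 genes assigned to it, mrpl18, MRPL46, MRPL38, MRPL27 and MRPL48 lay between 2.54 and 3.44 RPKM, and MRPL40 had 6.21 RPKM. The product of mrpl58 (0.727 RPKM) also lies there in mammals and was not among the 6, which are not all proteins of the protuberance. No place was assigned to mrpl52 (26.0 RPKM) or, outside the naming rule, to GADD45GIP1 (13.2 RPKM). The 6 values therefore do not give the level of the whole protuberance. In the core of the large subunit, MRPL4, MRPL13 and mrpl20 had 2.63, 3.07 and 3.16 RPKM, and MRPL2, near the peptidyl transferase centre, had 6.02 RPKM. In the small subunit, the decoding protein MRPS12 had 4.16 RPKM. The head proteins MRPS9, MRPS14 and MRPS10 had 3.52, 3.04 and 1.90 RPKM. On the platform, mrps18c and mrps21 had 4.66 and 5.23 RPKM, and mrps6 and MRPS11 had 2.27 and 1.77 RPKM.

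**Figure D3:**
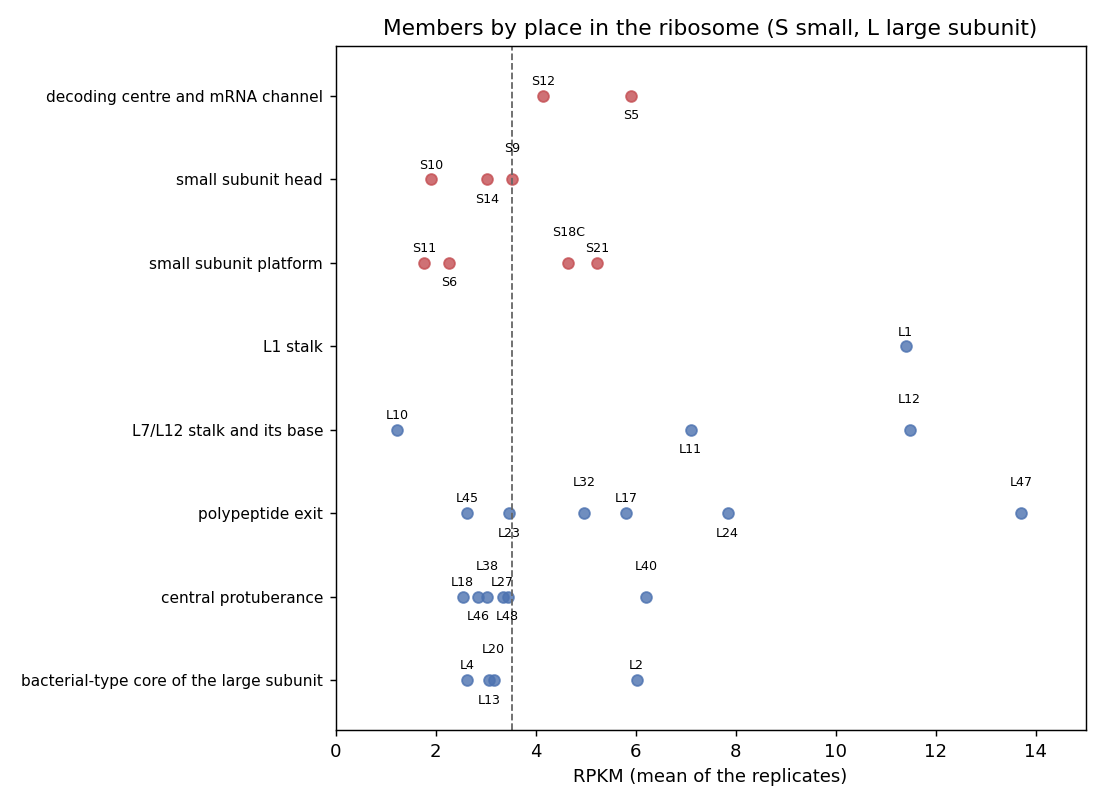
Each point is 1 of the members assigned to a place in the ribosome, labelled by subunit letter and number, at its deposited mean RPKM. Red points are small subunit and blue points large subunit genes, and the dashed line is the member median (3.52 RPKM). Of the 6 genes assigned to the protuberance, those other than L40 (6.21 RPKM) lie below the line. The genes assigned to the stalks, which need not be all of them, spread from 1.23 to 11.5 RPKM.

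Of the members with no place assigned and neither end of the order, MRPS18A and mrps18b aside, 4 small subunit genes lay between 2.89 RPKM (MRPS23) and 4.38 RPKM (MRPS35). The corresponding 15 large subunit genes lay between 1.85 RPKM (MRPL21) and 10.6 RPKM (MRPL28), with a median of 3.54 RPKM. Of these, 2 of 4 small and 8 of 15 large subunit genes exceeded the median of all detected symbols, as did 24.5% of all symbols.

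The name does not always give the place. MRPS18A, a paralogue of mrps18b and mrps18c, is built into the large subunit of the mammalian ribosome. The 3 paralogues had similar levels, 4.33 RPKM for MRPS18A, 3.996 RPKM for mrps18b and 4.66 RPKM for mrps18c. For mrps18b the RefSeq neighbour abcf1 had 83.1 RPKM, and its part in the value was not tested. Other neighbours with high values were psap (72.1 RPKM) beside mrps6 (2.27 RPKM) and cacybp (28.8 RPKM) beside MRPS14 (3.04 RPKM). These pairs were picked after their values were seen. Whether reads of a neighbour enter the value of any member was not tested. With MRPS18A counted in the large subunit, the ratio of the small to the large median was 1.16. Subunits of the same ribosome that carry other names were also present. AURKAIP1 and GADD45GIP1 had 16.0 and 13.2 RPKM, and chchd1 and the GTP-binding DAP3 had 4.13 and 3.39 RPKM. A further 10 symbols of the naming rule, mrpl3, mrpl15, mrpl22, mrpl33, mrps2, mrps7, mrps15, mrps16, mrps24 and mrps30, were not analysed here.

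Lists of genes that serve this ribosome had lower medians than its subunits, and their detected shares were near those of all symbols (49.0%) and of protein-coding symbols (53.7%). Of the subunits 61 of 65 were detected, with a median of 3.52 RPKM, and of the mitochondrial translation factors 5 of 11 (45.5%), with a median of 0.789 RPKM, a ratio of 4.46. The initiation factor mtif3 had 4.15 RPKM and MTIF2 1.04 RPKM. The elongation factors TSFM and GFM1 had 2.61 and 1.29 RPKM, and the recycling factor genes MRRF and GFM2 had 0.686 and 0.731 RPKM. For ribosome assembly and rRNA modification, 10 of 19 were detected (52.6%) and the median was 1.03 RPKM. The pseudouridine synthase genes RPUSD4 and trub2 were highest at 4.05 and 3.29 RPKM. No gene of either list reached RPKM 5, against 22 of the 65 members (33.8%) and 17.0% of all symbols.

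For transcription and mRNA handling in mitochondria, 8 of 11 were detected (72.7%) and the median was 2.17 RPKM. Their highest were SLIRP at 36.0 RPKM and its partner LRPPRC at 5.25 RPKM, which stabilise mitochondrial mRNAs, and the DNA-packaging factor TFAM at 13.0 RPKM. Protein import genes were closest to the ribosomal ones, with 21 of 24 detected (87.5%) and a median of 3.38 RPKM. The detected share was 49.0% over all symbols and 53.7% over protein-coding symbols, below that of both lists. The import channel gene TOMM40 was listed at 0, as was MRPS22, while tomm40l of the same list had 1.63 RPKM.

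The ribosomal protein genes of the cytosol stood far above those of mitochondria. The median was 3.52 RPKM over 65 mitochondrial genes and 95.8 RPKM over 66 cytosolic genes, so the mitochondrial median was 0.0368 of the cytosolic. The cytosolic pattern also took RPL7L1 (6.58 RPKM) and rps19bp1 (10.8 RPKM), which do not belong to the usual set of ribosomal proteins. Over all 66 genes the lowest was RPL7L1, and 13 of the 65 mitochondrial members exceeded it. Over the 64 genes without RPL7L1 and rps19bp1, a set chosen after seeing the data, the lowest was RPS28 at 30.5 RPKM. No mitochondrial member exceeded that. The highest member, mrpl52 at 26.0 RPKM, was itself above 97.0% of all symbols, so few of all symbols exceed 30.5 RPKM either. Nuclear-encoded respiratory chain genes, many of whose products join the proteins made by the mitochondrial ribosome, had a median of 5.88 RPKM. The median of the mitochondrial ribosomal protein genes was 0.599 of that. Of the respiratory chain genes 71 of 80 were detected (88.75%), against 49.0% of all symbols and 53.7% of protein-coding ones. The 13 mitochondrially encoded protein genes, the messages this ribosome translates, had a median of 194 RPKM, and their lowest, mt-nd4l, had 123 RPKM.

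**Figure D4:**
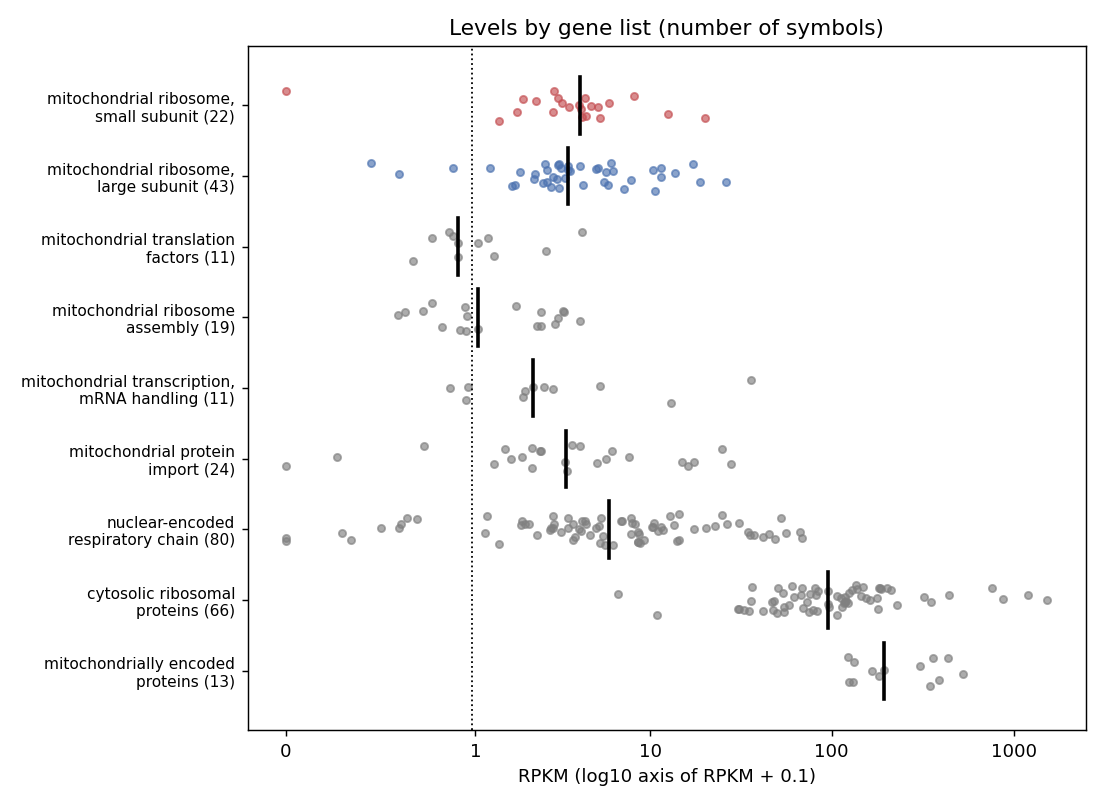
Each point is 1 gene symbol at its deposited mean RPKM on a log10 axis of RPKM + 0.1, by gene list with the number of symbols in brackets. Thick bars are medians and the dotted line is the median of all symbols (0.954 RPKM). The mitochondrial ribosome lies above mitochondrial translation and assembly factors, near import genes, and below cytosolic ribosomal proteins.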

How the data were processed

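RNA from 2 immunoprecipitates of Flag-Cpeb1b was sequenced. The authors deposited 1 RPKM value per Ensembl gene, averaged over the replicates as the table's name says. Zv9, TopHat2 2.1.1 with Bowtie, bedtools 2.16.2, MACS2 2.0.10, Trimmomatic 0.36, cutadapt 1.13 and FastQC appear in the submitters' processing notes. How strand, multiple alignments and gene lengths were handled, and the annotation, are not given there. Reads of overlapping genes or copies therefore cannot be told apart.

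Symbols came from a naming table (21939 of 33737 rows). Per symbol the highest row was used. With Python 3.11.15 and pandas 2.3.3, counts past RPKM 1, medians and their ratios were computed. Depth was read from values of 0.4 to 2 RPKM shared by at least 3 rows, and 135 of 171 such rows gave whole lengths within 0.002. The search was set to return 2 steps. It was tried on simulated libraries whose depths lay further apart than the 2 read here, so that trial does not cover such close depths. Neighbours come from RefSeq order (GRCz12tu), matched by symbol.

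Members and lists were chosen with earlier results of these data known. Named genes are the 6 highest and 6 lowest of each subunit, all at 0 and those assigned to a region. Those placed by structure against their name and leading list members were also named. MRRF, GFM2, MTIF2, LRPPRC, TOMM40, tomm40l and the neighbours were picked after their values were seen. Sequences and protein lengths were not used here. Lists matched 4 of 6 entries for subunits under other names, 11 of 12 for translation factors, 19 of 26 for assembly, 11 of 16 for transcription and 24 of 32 for import.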

Additional observations from a re-analysis of the deposited data

How the results depend on the processing

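A threshold of RPKM 0.1, 5 or 10 in place of 1 gave 64, 22 and 10 detected members in place of 61. The ratio of the small to the large subunit median was 1.17; it was 1.16 over members at RPKM 1 or more, 1.18 over those above 0, 1.16 with MRPS18A counted as large and 1.18 without the highest member of each subunit, and it reversed to 0.768 over members at RPKM 5 or more. The ratio of mitochondria-specific to bacterial-type medians was 0.973; it reversed to 1.14 at RPKM 1 or more, 1.23 at RPKM 5 or more and 1.05 above 0, and was 0.900 without the highest member of each subunit. The filters by RPKM select on the level that is compared and remove low members. All 4 members under RPKM 1 are mitochondria-specific. The member median was 3.996, 7.95, 3.53 and 3.47 RPKM under the same filters at RPKM 1, RPKM 5, above 0 and without the highest members, against 3.52 RPKM. The ratio of mitochondrial to cytosolic medians was 0.0368; it was 0.0417, 0.0830, 0.0369 and 0.0363 in those settings, 0.0369 when no row of a symbol was dropped and, chosen after seeing the data, 0.0348 without RPL7L1 and rps19bp1. Summing the rows of a symbol moved none of these 5 values. Each member stands on 1 row, so only the ratio to the cytosolic median could have moved. No paired analysis was possible because a single group was sampled. Values without either replicate could not be had from a deposited mean. Depth limits members near or under RPKM 1, at about 13.1 reads per kilobase or fewer.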

Other observations

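In the RefSeq gene order of assembly GRCz12tu, 1 pair of members stands side by side, mrps11 and mrpl46, with 1.77 and 2.86 RPKM. Each lies below the median of its own subunit. Over all members, 88 protein-coding neighbours had a value, mrps11 and mrpl46 among them. Of these 65 (73.9%) reached RPKM 1, against 53.7% of all protein-coding symbols, and their median was 2.05 RPKM, against 1.18 RPKM. These shares were not tested. The rank correlation between a member and its neighbour was 0.0447 over 89 pairs, which share the same libraries and in part the same member. The annotated order is of another build than the deposited table, so overlap between gene models was not assessed.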
